A study of Mus musculus with 9 samples.

Results

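The genes described here encode the proteins of the cytosolic ribosome. They are the protein-coding rows of the count table whose symbol is Rpl or Rps followed by a digit, Rplp0, Rplp1, Rplp2 or Rpsa, without the Rps6k kinases, and 94 of the 54532 genes in the table met this rule. Of these, 86 had at least 10 counts in every library, and values per library and tests below are for these 86 unless a gene is named as one of the other 8. The symbols of the 94 genes comprised 43 of the large subunit, 31 of the small subunit, 3 of the stalk, 7 paralogs or -like genes, and 9 annotated as protein-coding although named as copies (8 with a -ps suffix, and Rps27rt). The last gene, Rps19bp1, encodes a binding protein of Rps19 and not a ribosomal subunit. They lay on 20 chromosomes, with at most 14 on one, chromosome 7.

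RNA was sequenced from the hippocampus of N4 Ube3a m-/p+ mice, a model of Angelman syndrome in which the maternal copy of Ube3a is deleted and which had been crossed for 4 generations to 129Sv/Ev. The mice received an intracerebroventricular injection of Ant-134, a locked nucleic acid inhibitor of miR-134 (n = 5), or of Scr, a scrambled control oligonucleotide (n = 4). All were sequenced after repeated audiogenic seizure induction. The study describes injection of N4 mice at postnatal day 21 with tests at days 22, 24 and 26, and other schedules as well, and which schedule the sequenced mice followed, and so their age, is not given in the sources used here. Each library is from a single mouse, and all 9 mice carried the deletion, so no wild-type level is given. The sexes of the sequenced mice were not recorded, and the Y-linked gene Ddx3y was at most 0.164 CPM in Ant-134 mice 1 and 4 and Scr mouse 3 and between 52.2 and 60.6 CPM in the other 6. Total counts lay between 28583298 and 41978113 per library. Markers of hippocampal neurons summed to between 965 and 1187 CPM (counts scaled to a common library size) in each library, while choroid plexus markers ranged from 66.6 to 2561 CPM in the Ant-134 and from 78.9 to 2018 CPM in the Scr mice. Of 8 microglia markers, 4 had an unadjusted p below 0.05 in edgeR and were lower in the Ant-134 mice, where 2.69% of all genes tested were. After adjustment 0 of the 8 passed. The 8 summed to between 445 and 477 CPM in the Ant-134 and between 502 and 573 CPM in the Scr mice. In a bulk sample, fewer cells of a type and less RNA per cell cannot be told apart.

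Ribosomal proteins assemble with ribosomal RNA into a small subunit, which reads the mRNA, and a large subunit, which joins amino acids. Their mRNAs are among the most abundant of neurons and glia and are produced from many separate genes that are needed in near equal amounts. Many begin with a run of pyrimidines directly at the cap, the 5' terminal oligopyrimidine (TOP) motif, through which the mTOR kinase and the RNA-binding protein Larp1 control how much of the message is translated. The genes have also left many processed pseudogenes in the mouse genome, whose sequence is close to that of the parent mRNA.

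The TOP motif is shown because it ties many of these mRNAs to translational control and was not used to choose the genes. RefSeq start sites of GRCm38.p6 were found for 66 of the 94 genes, and in 14 of these (21.21%) the first base was C and was followed without a break by C or T to a run of at least 5 bases. The share was 3.001% among 13063 tested genes with a start site and 3.008% among all 27025. A run was counted only if it began exactly at an annotated start base, so members outside the 14 may still carry the motif. In the lines that follow the start base is the first capital, the run is in capitals, and 15 bases before the start and 15 from it are given for 7 of the 14 genes, chosen to cover runs of 6 to 13 bases.
Rpl15, chr14:18270972-18271001, minus strand: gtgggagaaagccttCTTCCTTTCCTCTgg
Rpl35, chr2:39005117-39005146, minus strand: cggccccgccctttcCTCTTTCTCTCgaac
Rps10, chr17:27635230-27635259, minus strand: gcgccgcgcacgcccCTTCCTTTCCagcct
Rps6, chr4:86857353-86857382, minus strand: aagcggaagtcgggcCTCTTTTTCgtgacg
Rpl38, chr11:114668565-114668594, plus strand: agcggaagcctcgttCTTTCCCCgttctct
Rps27, chr3:90213634-90213663, minus strand: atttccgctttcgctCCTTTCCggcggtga
Rps27rt, chr9:114982725-114982754, minus strand: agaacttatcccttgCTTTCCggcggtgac
The run was 13 bases long in Rpl15, 11 in Rpl35, 10 in Rps10 and 9 in Rps6. Words near the start were counted as well. The word CTTTCC, on the strand of the gene within 50 bases to either side, was present in 31.82% of the 66 genes, 5.274% of tested genes and 5.432% of all genes, and CTCTTT, which can overlap it, in 28.79%, 4.011% and 4.685%. On both strands from 250 bases before to 50 after the start, CCGGAAG was present in 39.39%, 16.74% and 9.928%, GCCAT in 57.58%, 42.70% and 44.18%, and TATAAA in 10.61%, 9.538% and 15.67%, so the last was not more frequent in the members than in all genes. A match to these letters is a description of the sequence and not a binding site.

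A second set of sequences shows how close some members are to their copies. For each pair the coding bases of the member were laid on the copy without gaps, and a stretch of 30 bases from within the coding region is given with the differing bases in capitals. These pairs were chosen after their counts had been seen.
Rpl34, chr3:130729070-130729099, minus strand: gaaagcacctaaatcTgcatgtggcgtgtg
Rpl34-ps1, chr6:71124726-71124755, plus strand: gaaagcacctaaatcCgcatgtggcgtgtg
Rps27, chr3:90213272-90213301, minus strand: ctcgcaaaggatctccttcatccctctcca
Rps27rt, chr9:114982672-114982701, minus strand: ctcgcaaaggatctccttcatccctctcca
Rpl30, chr15:34442692-34442721, minus strand: cgtgctgggctacaaGcagactctgaagat
Gm12191, chr11:49678948-49678977, minus strand: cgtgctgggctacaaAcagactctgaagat
Rps13, chr7:116332379-116332408, minus strand: taagcgggtgctcccaccTaattggaaata
Rps13-ps1, chr8:87048112-87048141, plus strand: taagcgggtgctcccaccCaattggaaata
Rps3a1, chr3:86138486-86138515, minus strand: aagtAaaaatgctgaagaaacccaagtTtg
Rps3a2, chr14:88123139-88123168, minus strand: aagtTaaaatgctgaagaaacccaagtCtg
Rps27 and Rps27rt differed at 0 of 252 coding bases, Rpl30 and Gm12191 at 1 of 345, Rpl34 and Rpl34-ps1 at 2 of 351, Rps13 and Rps13-ps1 at 2 of 453, and Rps3a1 and Rps3a2 at 4 of 792. A read pair that lies within the coding bases and covers none of the differing ones matches both genes equally well, whereas the untranslated ends can differ. Of all windows of 100 bases in the principal transcript, 98.4% were shared with the copy in Rps27, 68.8% in Rps13, 42.1% in Rps3a1, 32.5% in Rpl30 and 31.0% in Rpl34. How reads with several equal matches were counted is not given in the sources used here.

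Ribosomal protein genes were compared between the Ant-134 and Scr mice to ask whether the inhibitor was accompanied by a change in the messages of the ribosome. Their levels differed little between the groups. The median log2 fold change of the 86 genes, Ant-134 minus Scr, was -0.0016, beside 0.0026 over all 19782 genes tested, with 41 genes above 0 and 45 below. In 76 of the 86 genes the log2 fold change lay within 0.1 of 0. A single gene, Rpl34, had an unadjusted p below 0.05 in edgeR's quasi-likelihood test, and it was lower in the Ant-134 mice, so that 1.16% of the members passed where 4.18% of all genes tested did (1.49% higher and 2.69% lower). After Benjamini-Hochberg adjustment over all genes tested 0 members passed in edgeR, with a lowest adjusted p of 0.998, as did 0 of all 19782 genes, so this count is not particular to the members. In DESeq2, run without an expression filter on 37435 genes, 0 members and 16 of all genes passed adjustment. The tool also had only Rpl34 at an unadjusted p below 0.05, where 2.74% of all genes were. That share includes genes below the filter, so it is not on the same base as the 86 members.

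The intervals give the size of change that these 9 libraries leave room for. The 95% interval of a member's log2 fold change reached a median of 0.132 to either side. In 69 of the 86 genes the whole interval lay between -0.25 and 0.25, and in 77 between -0.5 and 0.5. The widest intervals belonged to Rpl30, Rpl17 and Rps27rt, whose levels differed more than 2-fold between mice of the same group. Microglia markers moved with the groups as given above, and their part in the levels of the ribosomal protein genes was not tested.

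**Figure D1:**
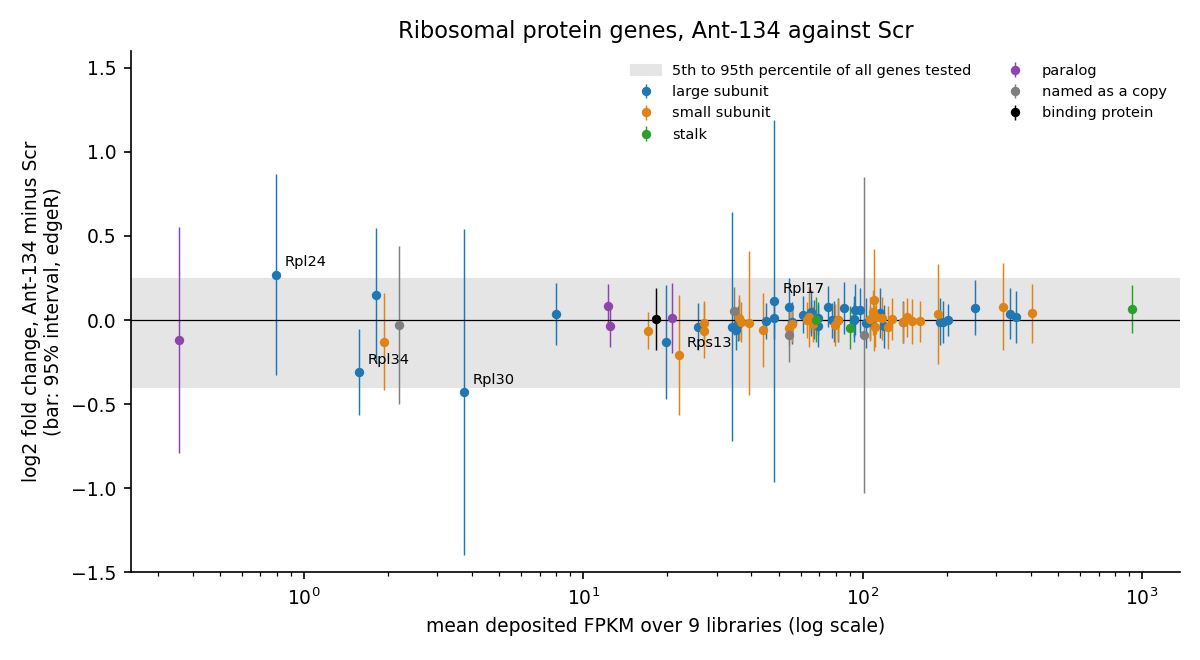
Log2 fold change, Ant-134 minus Scr, of the 86 ribosomal protein genes with at least 10 counts in every library (vertical axis, bars are 95% intervals from edgeR) against mean deposited FPKM (horizontal axis, log scale), coloured by kind of gene, with the band from the 5th to the 95th percentile of all genes tested in grey. The points crowd around 0 (median -0.0016), and Rpl34 at -0.31 is the only one whose interval, from -0.57 to -0.06, leaves out 0.

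Rpl34, a protein of the large subunit encoded on chromosome 3 (GRCm38, 130726831 to 130730398, minus strand), was 3.90, 4.18, 3.99, 3.41 and 3.54 CPM in Ant-134 mice 1 to 5 and 5.08, 4.71, 4.90 and 4.22 CPM in Scr mice 1 to 4. The groups did not overlap, but the highest Ant-134 mouse and the lowest Scr mouse differed by less than 0.05 CPM. Among all genes tested 1.54% had groups that did not overlap, and Rpl34 was the 1 member of the 86. The means were 3.80 ± 0.322 CPM (SD, n = 5) and 4.72 ± 0.371 CPM (SD, n = 4), which gives -0.31 on the log2 scale (standard error 0.12, unadjusted p = 0.0201 in edgeR, two-sided exact permutation test, p = 0.0159, where 5 mice against 4 can reach 0.00794). These values rest on 104 to 199 counts per library, while the copy Rpl34-ps1 on chromosome 6 held 2847 to 4840. Rpl34-ps1 was 106, 102, 101, 103 and 116 CPM in the Ant-134 mice and 108, 114, 108 and 104 CPM in the Scr mice, and these overlapped. With the counts of its named copies added, the log2 fold change was -0.05 (unadjusted p = 0.297 in edgeR), but Rpl34 gives only 4.21 of the 111 CPM that it and Rpl34-ps1 sum to, so the sum would follow the copy whatever the counts of Rpl34. Whether reads of the Rpl34 mRNA were counted on Rpl34-ps1 was not tested. The call did not hold without Scr mouse 1 (unadjusted p = 0.0556 in edgeR) or with the replicate number as a block (unadjusted p = 0.0506 in edgeR). Nor did it hold without Ant-134 mice 4 and 5 (unadjusted p = 0.109 in edgeR), a setting chosen after seeing the data.

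The stalk proteins, which recruit elongation factors to the ribosome, were measured at high counts. Rplp1 was 485, 459, 468, 421 and 531 CPM in the Ant-134 mice and 454, 495, 406 and 454 CPM in the Scr mice, a log2 difference of 0.06 (standard error 0.067). Rplp2 averaged 142 ± 13.0 CPM in the Ant-134 mice (SD, n = 5) and 142 ± 7.38 CPM in the Scr mice (SD, n = 4), and Rplp0, which anchors the stalk, 149 ± 5.52 and 153 ± 15.3 CPM. In all 3 the groups overlapped, and the unadjusted p lay between 0.357 and 0.969 in edgeR.

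Rpl5 and Rpl11 form a particle with the smallest ribosomal RNA, and when free they bind Mdm2, the inhibitor of p53. Rpl5 was 178, 170.0, 178, 169 and 197 CPM in the Ant-134 mice and 186, 184, 176 and 171 CPM in the Scr mice. Rpl11 was 166, 144, 155, 129 and 167 CPM against 142, 161, 139 and 133 CPM, the Ant-134 mice holding both the lowest and the highest value. Their log2 fold changes were -0.0041 and 0.08, and neither passed the test (unadjusted p = 0.936 and 0.330 in edgeR).

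Rps6, the protein of the small subunit that S6 kinases phosphorylate when mTOR is active, was 206, 203, 195, 195 and 221 CPM in the Ant-134 mice and 217, 219.5, 194 and 183 CPM in the Scr mice. The spread was wider in the Scr group and the means were alike, 204 ± 10.8 CPM (SD, n = 5) and 204 ± 17.6 CPM (SD, n = 4). Its log2 fold change was 0.0039, with an interval from -0.12 to 0.13. Rpsa, also known as the laminin receptor, was 376 ± 24.4 against 374 ± 29.8 CPM, and its interval ran from -0.12 to 0.14.

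Rpl10a and Rpl22, the proteins tagged in mouse lines used to purify ribosomes from chosen cells, had log2 fold changes of 0.0023 and 0.0035. Rps19, mutated in Diamond-Blackfan anaemia, was at -0.02 and Rps25 at -0.02. Rpl38, known for its part in the translation of Hox mRNAs, was 149, 134, 151, 115 and 157 CPM in the Ant-134 mice against 136, 135, 127 and 139 CPM in the Scr mice, with Ant-134 mouse 4 the lowest and Ant-134 mouse 5 the highest of all 9. Its log2 fold change was 0.07 (unadjusted p = 0.354 in edgeR). Without Ant-134 mouse 4, 5 members had an unadjusted p below 0.05 where 4.90% of all genes did, and Rpl38, Rpl28, Rpl37 and Rps29 joined Rpl34.

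After Rpl34 no member had an unadjusted p below 0.1. Among genes higher in the Ant-134 mice, the lowest p belonged to Rpl28, at 0.08 on the log2 scale (standard error 0.057, unadjusted p = 0.188 in edgeR), and the next to Rpl22l1, a paralog of Rpl22, also at 0.08 (unadjusted p = 0.197). The highest value was 0.27 for Rpl24, with an interval from -0.33 to 0.87 at 14 to 48 counts per library. Rpl22l1 was 24.6, 24.9, 26.5, 24.7 and 25.9 CPM in the Ant-134 mice and 21.6, 25.4, 25.2 and 23.3 CPM in the Scr mice, and these ranges overlapped. Among genes that were lower, Rps13 had -0.21 (standard error 0.16), Rps15a -0.06, Rps12-ps3 -0.09 and Rpl18 -0.06, with an unadjusted p between 0.219 and 0.316 in edgeR.

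The subunits and the start sites did not stand apart from each other. The median log2 fold change was 0.0010 over the 43 genes of the large subunit and -0.0080 over the 31 of the small subunit. Over the 14 genes with a pyrimidine run at the start it was -0.0049, with 7 above 0 and 0 called, and over the other 72, which include members with no RefSeq start site, it was -0.0016. The other 72 may also include mRNAs whose run does not begin at the annotated base. These are descriptions with no test.

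The paralogs and the members below 10 counts are described by their own counts. Rps27l, a p53 target, averaged 17.2 ± 2.07 CPM over the Ant-134 mice (SD, n = 5) and 17.1 ± 1.71 CPM over the Scr mice (SD, n = 4), and Rpl7l1 43.7 ± 2.15 and 44.7 ± 3.65 CPM. Rpl36al was counted at 11 to 27 per library and Rpl3l, the striated muscle form of Rpl3, at 8 to 30. Rpl39l, known from testis, had 0 to 10 counts. Rpl10l, an autosomal copy of the X-linked Rpl10 known from testis, had 0 counts in every library, which allows up to between 0.0715 and 0.105 CPM in a library at a floor of 3 counts. Their parents Rpl3, Rpl10 and Rpl39 averaged 210.1 ± 12.9, 219.6 ± 11.5 and 80.5 ± 6.65 CPM over the Ant-134 mice (SD, n = 5). Of the members named as copies, Rpl36-ps4 had 0 counts in every library, Rpl13a-ps1 and Rpl9-ps1 had 0 or 1, Rpl36a-ps1 had 6 to 19 and Rpl10-ps3 8 to 25. Of these 8 genes below 10 counts, Rpl3l, Rpl10-ps3 and Rpl36a-ps1 passed the expression filter, and their unadjusted p was 0.784, 0.497 and 0.898 in edgeR.

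Levels differed widely between members when set per transcript length. Over the 77 genes of the subunits and the stalk, the median was 186 CPM per kilobase of principal transcript, and 55 lay within 2-fold of it. Rplp1 was the highest at 929, followed by Rpl41, which encodes a very short basic peptide, at 730.2. Rps29 stood at 569 and Rps15 at 511. In the deposited FPKM, which use the authors' merged exon length, the same 4 genes and Rpl36 were the highest, with means from 317 for Rps29 to 920.4 for Rplp1.

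At the other end, 5 genes of the subunits lay more than 10-fold below the median, Rpl24 at 1.23, Rpl29 at 2.90, Rps10 at 5.08, Rpl34 at 8.78 and Rpl13a at 16.2 CPM per kilobase. All are proteins of every cytosolic ribosome. In Rpl24, 71.49% of the bases of the principal transcript also lay in exons of another annotated gene, Gm28037, and the same held for 59.31% of Rpl13a (Gm45713) and 63.59% of Rps10 (RPS10-NUDT3). In Rpl29 and Rpl34 no base overlapped another gene, but a pseudogene with identical stretches held more counts, 30.6 CPM for Gm13841 against 2.06 for Rpl29, and 107 CPM for Rpl34-ps1 against 4.21 for Rpl34. Rps10 was also exceeded by Rps10-ps2, at 41.9 CPM against 4.51. The values of these 5 genes are the counts assigned to the gene's own row, and whether they give the amount of the mRNA was not tested.

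**Figure D2:**
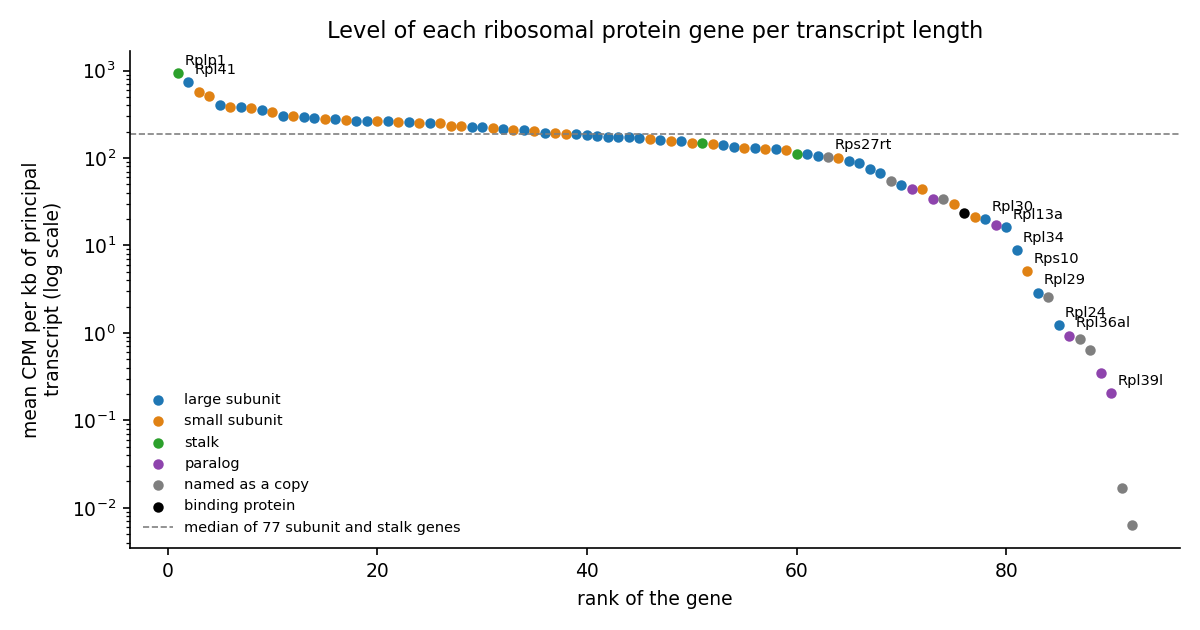
Mean CPM per kilobase of principal transcript (vertical axis, log scale) of the 92 ribosomal protein genes with any count, ranked from highest to lowest (horizontal axis) and coloured by kind, with a dashed line at 186, the median of the 77 subunit and stalk genes. The curve runs from 929 for Rplp1 with 55 of the 77 within 2-fold of the line, and Rpl13a, Rpl34, Rps10, Rpl29 and Rpl24 fall away below 18.6 among paralogs and copies.

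Stretches shared with other genes were the rule. Of the 86 members, 79 had at least one window of 100 bases that occurred unchanged in a transcript of another gene, and in 39 at least 50% of all windows did. The median share was 44.0%. The study's reads were paired and longer than 100 bases, so these shares describe the sequence and not the part of reads that match several genes. The other 7, among them Rpl22, Rps27l and Rps21, shared none. The table also held 377 pseudogenes named for 66 of the members, of which 240 had a count and 58 had at least 10 in every library. Their counts came to between 5.94 and 6.59 for every 100 counts of the 86 members, and this leaves out pseudogenes under other names, of which Gm8730 stood at 120.1 CPM, Gm6472 at 72.4 CPM and Gm12191 at 64.5 CPM. The exceptions were 11 of the 86 members for which a gene with a shared window held more counts than the member itself. Among them were Rps27rt, Rpl9-ps6, Rps12-ps3 and Rpl27-ps3, themselves named as copies. The gene with more counts was there Rps27, Rpl9, Rps12 and Rpl27, and not a pseudogene.

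In some of these genes the level differed strongly between mice of the same group. Rps27rt, an intact retrotransposed copy of Rps27, was 40.8, 56.7, 21.8, 27.8 and 38.1 CPM in the Ant-134 mice and 31.2, 70.7, 29.9 and 25.98 CPM in the Scr mice, highest in Scr mouse 2 and Ant-134 mouse 2. Rps27 itself was 118, 95.8, 139, 113 and 132 CPM against 127, 88.9, 105 and 119.6 CPM, and was lowest in these same mice. Their sum was 159, 152, 161, 141 and 169.9 CPM against 158, 159.5, 135 and 146 CPM. The coefficient of variation over the 9 mice was 42.0% for Rps27rt, 14.3% for Rps27 and 7.18% for the sum.

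Rpl17 and its pseudogene Rpl17-ps10 also ran in opposite directions. Rpl17 was 54.9, 28.4, 56.5, 20.6 and 35.5 CPM in the Ant-134 mice and 26.01, 68.8, 24.2 and 25.2 CPM in the Scr mice, while Rpl17-ps10 was 65.3, 96.4, 64.5, 87.0 and 97.4 CPM against 109, 64.8, 95.5 and 94.6 CPM. The 3 mice with high Rpl17, Ant-134 mice 1 and 3 and Scr mouse 2, were the 3 with low Rpl17-ps10. The coefficient of variation was 46.5% for Rpl17 and 7.07% for the sum.

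Rpl30 was 7.43, 8.81, 8.15, 7.37 and 17.7 CPM in the Ant-134 mice and 8.12, 7.76, 21.3 and 16.1 CPM in the Scr mice, so that 3 mice, Ant-134 mouse 5 and Scr mice 3 and 4, stood above the other 6. Its log2 fold change was -0.43 with an interval from -1.40 to 0.54. The larger number of reads lay on Gm12191, at 61.6 to 68.8 CPM in the Ant-134 mice and 57.7 to 73.0 CPM in the Scr mice, and the coefficient of variation was 47.2% for Rpl30, 7.001% for Gm12191 and 6.99% for the sum, which consists mostly of Gm12191. Rps13 was highest in Scr mouse 3, at 80.5 CPM, where Rps13-ps1 was lowest, at 19.0 CPM against 34.9 to 43.6 CPM in the other 8 mice. The coefficient of variation fell from 17.8% for Rps13 to 10.1% for the sum. Rpl7a, which was 99.1 CPM in Scr mouse 2 and 42.6 to 83.1 CPM in the others, had a coefficient of variation of 30.3% alone and 28.1% with AC121151.1 added, which held at most 6.09 CPM. With all its named copies added, and the level common to the members removed, its SD on the log2 scale went from 0.33 to 0.25. Rps12, which shares 88.9% of its windows with Rps12-ps3, had a coefficient of variation of 7.35% alone and 7.43% for the sum.

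**Figure D3:**
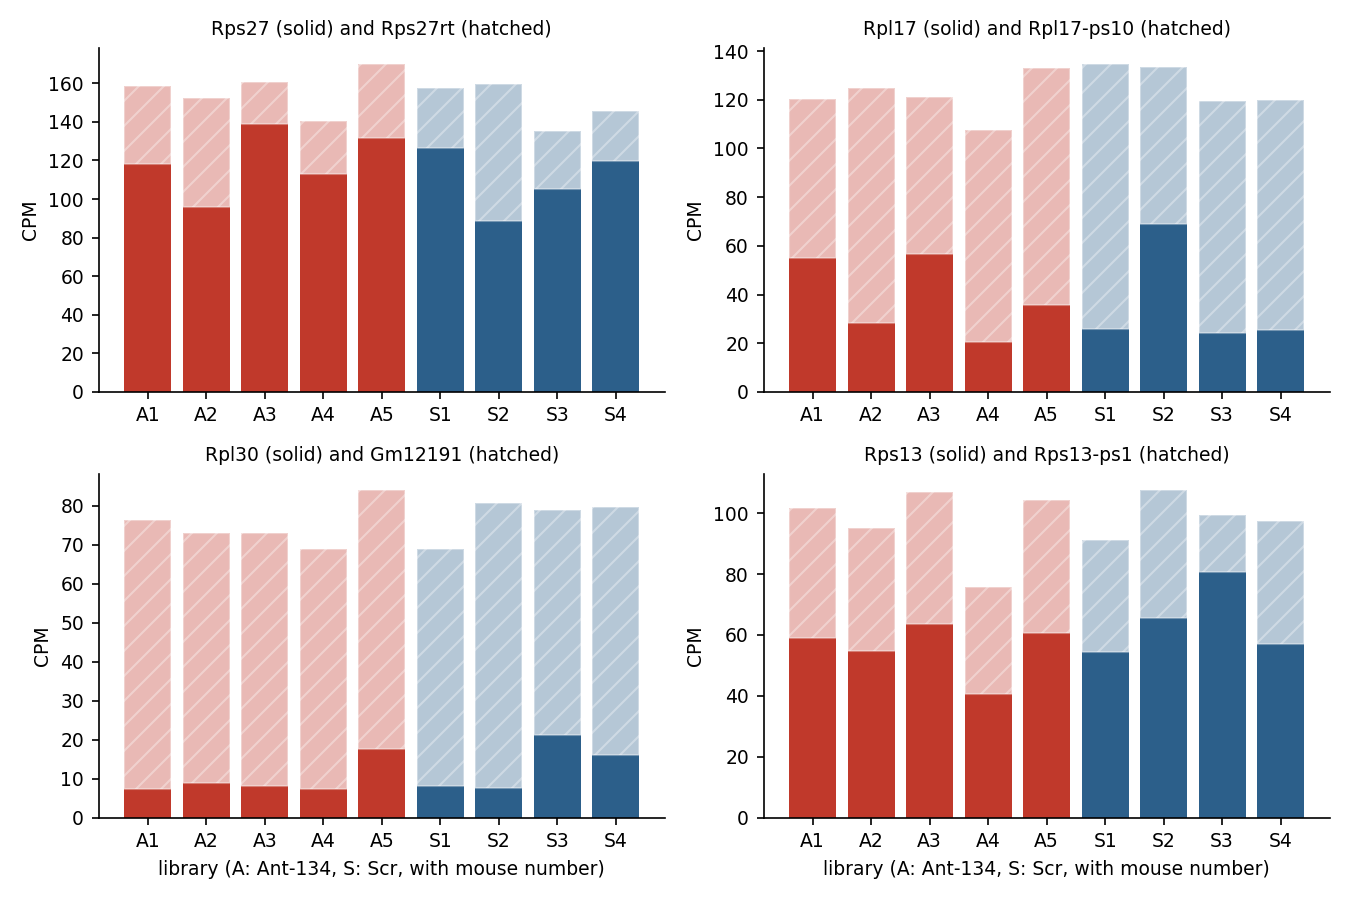
CPM (vertical axis, from 0) of 4 ribosomal protein genes (solid) and a near-identical copy (hatched, stacked on top) in each of the 9 libraries, Ant-134 mice 1 to 5 in red and Scr mice 1 to 4 in blue. In these 4 pairs the whole bar varies less in relative height than its solid part. In Rps27 and Rps27rt the coefficients of variation are 7.18% for the sum, 14.3% for Rps27 and 42.0% for Rps27rt.

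Apart from such genes, the members rose and fell together from mouse to mouse. After each gene's mean over the 9 libraries was subtracted from its log2 CPM, the median over the 86 genes was 0.03, -0.03, -0.0075, -0.14 and 0.13 in Ant-134 mice 1 to 5 and 0.03, 0.09, -0.07 and -0.04 in Scr mice 1 to 4. Ant-134 mouse 4 and Ant-134 mouse 5 were the lowest and the highest of all 9, and both had received the inhibitor. In mouse 4, 79 of the 86 genes lay below their own mean, and in mouse 5, 79 lay above it. In Scr mouse 2, 82 lay above. Over all genes tested the share above their mean was between 49.5% and 52.5% in every library.

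These mice were singled out because they were the extremes of this median, so their difference describes the range and is not a separate result. The step from Ant-134 mouse 4 to Ant-134 mouse 5 was 0.29 on the log2 scale as the median of the 86 genes, and 81 of them were higher in mouse 5. Of the 8286 other genes with a mean of at least 20 CPM, 47.6% were higher in mouse 5, with a median of -0.0096. Both subunits took part: the median of the large subunit was -0.13 in mouse 4 and 0.14 in mouse 5, and that of the small subunit -0.15 and 0.13. The 6 members that share under 1% of windows and bases with any other gene had medians of -0.14 and 0.14, and with named copies added the medians of the 86 were -0.13 and 0.13. The members took between 1.08% and 1.34% of all counts, 1.21 ± 0.0950% (SD, n = 5) in the Ant-134 mice and 1.22 ± 0.0627% (SD, n = 4) in the Scr mice (two-sided exact permutation test, p = 0.913).

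**Figure D4:**
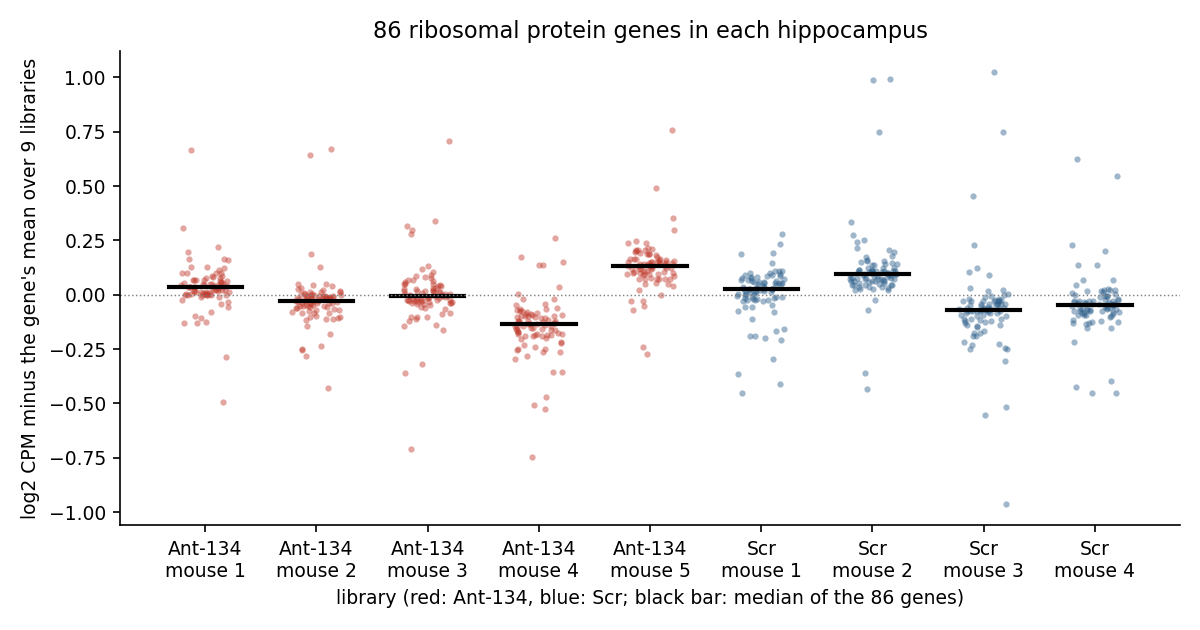
Deviation of log2 CPM from the gene's mean over 9 libraries (vertical axis) for each of the 86 ribosomal protein genes (points) in each library (horizontal axis), with the median as a black bar. The medians run from -0.14 in Ant-134 mouse 4 to 0.13 in Ant-134 mouse 5, and the Scr mice lie between them.

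The median SD of a member over the 9 libraries was 0.10 on the log2 scale, beside 0.08 for the 8286 other genes of at least 20 CPM. After the median of the members was subtracted in each library, which narrows the spread by construction, it was 0.05. In 13 of the 86 members the SD stayed above 0.2 after this step, and in 9 when the counts of named copies were added. Over the 66 members with a named copy, the median SD was 0.0520 alone and 0.0508 with the copies added. The SD was lower with the copies in 46 of these 66.

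Other quantities were set beside this pattern for each library. The 77 tested genes of the mitochondrial ribosome, whose proteins are separate from those of the cytosol, had a median of -0.07 in Ant-134 mouse 4 and 0.09 in Ant-134 mouse 5. Elongation factors had -0.02 and 0.07, and other TOP mRNAs -0.01 and 0.07. The 1899 other genes with a merged exon length below 1 kilobase had -0.03 and 0.04, and mitochondrial transcripts took 3.47% and 4.01% of counts in these mice against 3.33% to 3.96% in the others. Choroid plexus markers summed to 66.6 and 98.1 CPM in these mice, both among the 3 lowest, and oligodendrocyte markers to 7407 and 6279 CPM, against 7913 CPM or more in the other 7. The Y-linked genes were near 0 in Ant-134 mouse 4 and high in Ant-134 mouse 5. With their level as a covariate Rpl34 was still the 1 member called, where 4.75% of all genes were called. The part of sex, of short transcripts, of mitochondrial reads and of the cell mix in the pattern of the ribosomal proteins was not tested.

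**Figure D5:**
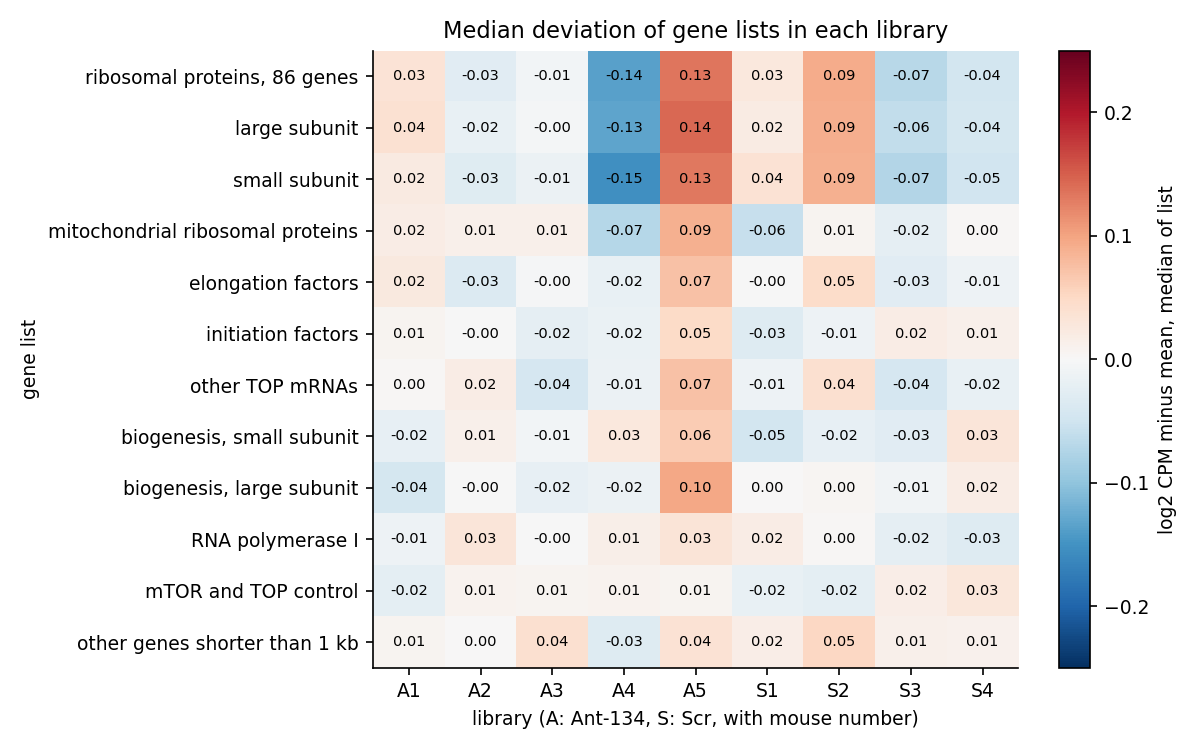
Median over each gene list (rows) of the deviation of log2 CPM from the gene's mean, in each library (columns, A for Ant-134 and S for Scr with the mouse number), with red above and blue below the mean. Ribosomal proteins run from -0.14 in A4 to 0.13 in A5, with the mitochondrial ribosome at -0.07 and 0.09, while the list of mTOR regulators is at 0.0088 and 0.0070.

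Other genes of the translation machinery were taken from 12 lists, with 226 genes tested. An unadjusted p below 0.05 in edgeR was found for 6 of them (2.65%), beside 4.18% of all genes, and 0 passed after adjustment. All 6 were higher in the Ant-134 mice, where 1.49% of all genes were called higher and 2.69% lower. DESeq2, run without the filter, had 9 of them at an unadjusted p below 0.05, where 2.74% of all 37435 genes were. That share includes genes below the filter, which the 226 genes passed, so the bases differ. The count in edgeR was 2 without Ant-134 mouse 2, where 4.19% of all genes were called, and 3 without Scr mouse 1, where 3.79% were. The median log2 fold change of these genes was 0.01. In edgeR none of the 10 elongation factors, the 37 initiation factors or the 15 other TOP mRNAs and nascent chain factors passed. Nor did any of the 5 genes of the box H/ACA particle, the 13 chaperones or the 15 quality control genes. Eef1a2, an elongation factor, and Ppia, of the other TOP mRNAs, are among the upregulated genes that the study lists. Their unadjusted p in edgeR was 0.0930 and 0.0914. The 77 genes of the mitochondrial ribosome had 0 calls in edgeR and a median of 0.03, with 58 above 0.

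Of the 39 tested factors that build the large subunit 1 passed, of the 37 that build the small subunit 1, of the 16 of RNA polymerase I 2, of the 25 regulators of mTOR and TOP mRNAs 1, and of the 11 genes of the p53 response 1. Cd3eap, a subunit of RNA polymerase I, was 22.7, 22.8, 21.2, 20.6 and 23.6 CPM in the Ant-134 mice and 19.7, 20.1, 19.6 and 20.3 CPM in the Scr mice, without overlap (log2 fold change 0.16, standard error 0.060, unadjusted p = 0.0197 in edgeR). Taf1b, of the factor that brings this polymerase to ribosomal DNA, was 20.4, 21.8, 22.6, 22.7 and 24.1 CPM against 20.5, 19.8, 21.1 and 19.7 CPM, with 1 Ant-134 mouse inside the Scr range. Nop58, which guides methylation of ribosomal RNA, had a log2 fold change of 0.11 and Rsl1d1 of 0.13. Eif4ebp3, a translation inhibitor, and Gdf15, a stress cytokine induced by p53, had 0.72 and 1.26 from levels below 1.5 CPM, and in both the groups overlapped (two-sided exact permutation test, p = 0.0556 and 0.143).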

How the data were processed

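The authors sequenced poly(A)-selected RNA as paired reads and aligned them to GRCm38 (mm10 in the submitters' processing notes) with HISAT2 2.0.5. Reads were counted per gene with featureCounts 1.5.0-p3, and CASAVA 1.8 is also named in those notes. The annotation release and the handling of reads with several matches are not given in the sources used here. The deposited counts are raw, and the deposited FPKM are the same counts scaled by the authors to merged exon length and library total.

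The members and the gene lists were chosen with earlier results of these data known. The test was edgeR 4.0.16 under R 4.3.3 (filterByExpr with a minimum count of 10, TMM, robust quasi-likelihood test, Benjamini-Hochberg adjustment over 19782 genes), 5 Ant-134 against 4 Scr mice, with no covariate. Calls use an unadjusted p below 0.05, the study's threshold. CPM are on TMM-scaled libraries, and intervals are 95%. The floor of 3 counts covers counting error only, as PCR duplicates cannot be told from separate molecules. Single genes were also compared by exact permutation over 126 splits. Named genes were the 5 members with the smallest p in each direction, the 5 with the highest and lowest FPKM, stalk and other well known proteins, paralogs with their parents, members below 10 counts, members with a library far from its group, and up to 2 genes per other list. Windows, overlaps and coding bases come from GENCODE M21 of GRCm38, and start sites from RefSeq (GRCm38.p6). Alternatives were DESeq2 1.42.0, limma 3.58.1 on log2 FPKM with a pseudocount of 1 or 0.1, other scalings and filters, a replicate block, a Y-linked covariate, summed copies and left-out libraries. The edgeR script was tested on simulated counts. Replicates were not duplicates of each other, since the chi-square per gene between any pair within a group was at least 8.30. Results for a few genes are not reported here.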

Additional observations from a re-analysis of the deposited data

Results flagged for a closer look

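In 10 of the 176 groups of values examined (each of the 86 genes, their common level and their share of counts, in each treatment group) 1 library lay far from the others, and chance gives about 1 in 20 groups, or 8.8. Ant-134 mouse 5 was the highest of its group for Rpl4 (442 CPM against 397 to 410), Rps21 (193 against 136 to 151), Rps19bp1 (24.4 against 18.1 to 19.3) and Rpl30 (17.7 against 7.37 to 8.81). Ant-134 mouse 4 was the lowest of its group for Rps23, at 162 CPM against 193 to 204. Scr mouse 2 was the highest of its group for Rps27rt (70.7 CPM against 25.98 to 31.2), Rpl17 (68.8 against 24.2 to 26.01), Rpl7a (99.1 against 44.8 to 52.5) and Rpl39 (87.3 against 79.5 to 79.7), and Scr mouse 3 the lowest for Rps19bp1 (17.9 against 20.4 to 20.7).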

How the results depend on the processing

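The count of 0 members after adjustment held under every alternative run, where 0 to 17 of all genes passed, and the median log2 fold change of the members stayed between -0.039 and 0.029, which is less than the SD of their common level between mice of a group (0.088). The 1 member called at an unadjusted p below 0.05 became 0 without Ant-134 mice 4 and 5. There the called named members were also 0, and 4.03% of all genes were called. With 1 library left out in turn, the called members numbered 0 (without Scr mouse 1) to 5 (without Ant-134 mouse 4), and the called named members 0 to 5. The called genes of the translation lists numbered 2 (without Ant-134 mouse 2) to 9, with 3 without Scr mouse 1. Of all genes, 3.79% were called without Scr mouse 1, 4.19% without Ant-134 mouse 2 and 4.90% without Ant-134 mouse 4. Rps27a was called without Scr mouse 4, with 2 members in all, where 4.84% of all genes were called. The numbers of the replicates do not pair the mice, whose deviations correlated by -0.12 to 0.01 between mice of the same number. With the replicate number as a block, 0 members passed adjustment and the median was -0.039. In this fit 1 member (Rps13, not Rpl34), 4 genes of the translation lists and 1 named member were called, where 4.08% of all genes were. Rpl34 was lower in the 22 alternatives that keep its own counts, with log2 fold changes of -0.36 to -0.19 and an unadjusted p below 0.05 in 19. It stood at -0.05 (unadjusted p = 0.297 in edgeR) when its named copies were summed, where 0 members and 4.15% of all genes were called. Rpl34 is a small part of that sum as counted. In 30 of the 48 named members tested the sign of the log2 fold change turned in at least 1 alternative, while 6 were called in any. The cause of these differences was not tested. The numbers of counts, 104 to 199 for Rpl34 and fewer for Rpl36al, Rpl3l and Rpl39l, limit what can be read from the lowest members.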
